A study of Homo sapiens with 6 samples.

Results

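The genes described here are 10 that encode apolipoproteins or load lipid onto them, namely APOA1, APOA2, APOA4, APOB, APOC1, APOC3, APOE, APOH, APOM and MTTP. They were chosen by name and role and not by a rule on their values, though with earlier results of these data known. They are 10 of the 20030 genes in the deposited count table. They were measured by mRNA sequencing in HepG2, an established human hepatoma line that secretes lipoproteins and still expresses many hepatocyte genes. The control group (sh-ctrl, 3 libraries) carried a control short hairpin RNA, and the knockdown group (sh-KIF11, 3 libraries) carried a hairpin against KIF11, a mitotic kinesin motor. The methods of the study describe hairpins cloned into the lentiviral vector pLKO.1, so both groups were of cells transduced with lentivirus, and untransduced cells were not analysed here. The knockdown columns of the tables bear no name but shRNA, and were assigned to KIF11 since it is the only other hairpin in the labels. Nothing in the labels says whether the 3 libraries of a group came from separate cultures, so p-values measure only the spread between these libraries. The comparison asks which transcripts of lipoprotein assembly differed between HepG2 cells with and without the KIF11 knockdown.

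Lipoproteins carry lipid through the blood in particles coated with apolipoproteins. Hepatocytes build very low density lipoprotein around a single molecule of APOB, onto which the microsomal triglyceride transfer protein (MTTP) loads lipid in the endoplasmic reticulum, and they secrete APOA1 and APOA2, which form high density lipoprotein (HDL). The smaller exchangeable apolipoproteins move between particles and set how these are lipolysed and taken up.

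Library totals ranged from 18167773 to 19583282 counts. The TMM factors, which scale libraries by the trimmed mean of gene-wise ratios, ran from 0.922 to 0.926 in sh-ctrl and from 1.080 to 1.086 in sh-KIF11. KIF11 counts were 1976, 2088 and 2039 in control and 1448, 1478 and 1240 in knockdown libraries, a log2 fold change of -0.75 ± 0.057 (SE; edgeR quasi-likelihood test, adjusted p = 4.22e-15). Among 12369 tested genes, 34.7% were lower and 34.4% higher in sh-KIF11 at an adjusted p under 0.05, so a call by itself was common. All 9 HepG2 markers were expressed, with a summed level of 24908 to 26367 CPM (counts scaled by library size and TMM factor to a common total) in sh-ctrl and 10486 to 10738 in sh-KIF11, and 8 of the 9 were lower. The part of this lower marker sum in the apolipoprotein changes was not tested. The markers changed unevenly, with log2 fold changes of -0.21 ± 0.049 for KRT8, -0.31 ± 0.049 for KRT18 and -1.49 ± 0.058 for ALB. Marker sums of cells that the culture should not hold were small for fibroblasts (2.55 to 3.93 CPM in sh-ctrl, 1.401 to 2.04 in sh-KIF11, with DCN at 0) and endothelium (3.16 to 3.56, and 4.69 to 4.98, with TEK at 0). The blood cell sum was 78.0 to 89.1 and 41.8 to 46.2 CPM, nearly all of it CD68, with HBB at 0 and PTPRC and CD3E at 3 counts or fewer. The enterocyte sum was 410 to 452 and 287 to 297 CPM, nearly all of it VIL1, with CDX1 and SI at 0. In a bulk library, fewer cells that express a gene and less RNA per cell cannot be told apart.

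Of the 10 genes, 9 were lower in sh-KIF11 and none was higher by edgeR's quasi-likelihood test at an adjusted p under 0.05. At an unadjusted p under 0.05 none could be higher either, since all 10 log2 fold changes were negative. DESeq2 also called 9 lower and 0 higher. APOA4 was the gene that did not pass. For these 9 genes the normalized knockdown values were all below the control values, whereas 35.8% of all tested genes did not overlap in this direction. At least a 2-fold decrease was found for 6 of the 10, APOA1, APOA2, APOC1, APOC3, APOH and APOM, against 3.52% of all tested genes. Of the 9392 genes whose mean reached 10 CPM, a background chosen after seeing the data, 41.4% were called lower. The median log2 fold change of the 10 genes was -1.03 with a range from -1.96 to -0.35, and that of all tested genes was 0.00.

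**Figure D1:**
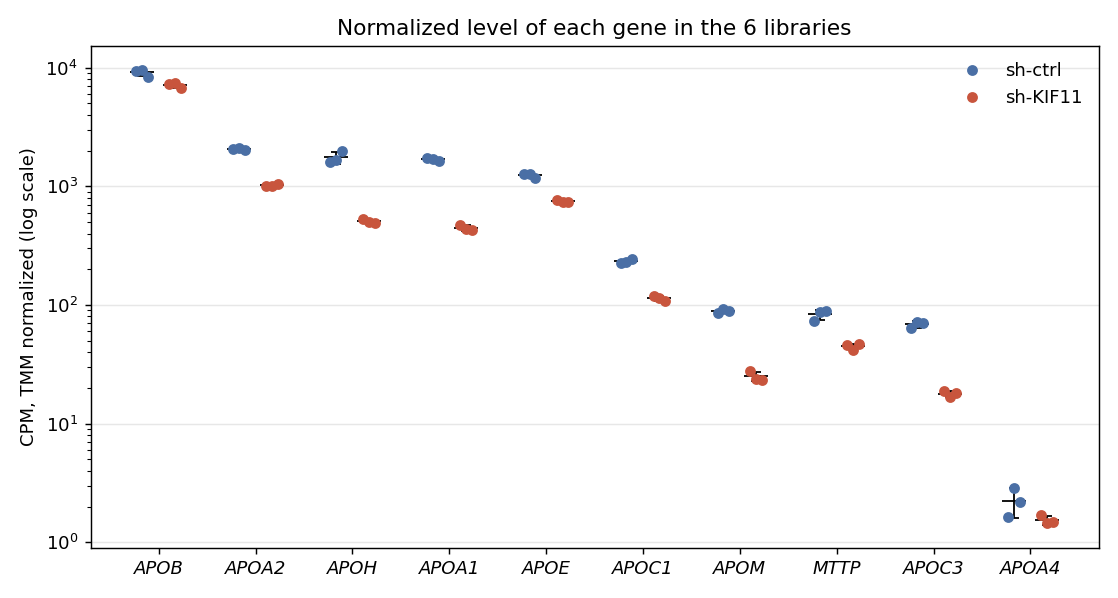
Level of each gene in the 6 libraries, as TMM-normalized CPM on a log axis, with sh-ctrl in blue, sh-KIF11 in red, each point a library and the bars the mean ± SD of 3 libraries. For every gene but APOA4 the 3 sh-KIF11 points lie below the 3 sh-ctrl points, and the smallest fold change is that of APOB, 1.27-fold lower.

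APOB is the structural protein of very low and low density lipoprotein and was the most abundant of the 10 by counts. Its gene lies on chromosome 2 at chr2:21001429-21044073 on the minus strand (GRCh38, GENCODE 29). APOB counts were 168470, 172827 and 140810 in control and 146979, 155051 and 132285 in knockdown libraries. The raw counts of the groups overlapped, because the lowest sh-ctrl library, replicate 3, was below both of the higher sh-KIF11 libraries. After TMM scaling the means were 9122 ± 678 and 7174 ± 413 CPM (SD, n = 3 libraries per group) and the groups no longer overlapped. This was a log2 fold change of -0.35 ± 0.053 (edgeR, adjusted p = 3.20e-07), or 1.27-fold lower. The size depended on the scaling, since library totals alone gave -0.12 (edgeR, adjusted p = 0.0484) and limma on log2(FPKM + 1) gave -0.20, where FPKM is a level scaled to transcript length and library size.

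MTTP encodes the large subunit of the transfer complex, at chr4:99563761-99623999 on the plus strand. Control libraries held 1314, 1583 and 1488 MTTP counts, and knockdown libraries 921, 867 and 916. All knockdown libraries were below all control libraries. The means were 83.2 ± 8.24 and 44.7 ± 2.49 CPM, a log2 fold change of -0.89 ± 0.066 (edgeR, adjusted p = 1.77e-15). The number of MTTP counts per 100 APOB counts, which does not depend on how libraries are scaled, was 0.918 ± 0.138 in sh-ctrl and 0.626 ± 0.0666 in sh-KIF11. The ranges did not overlap, but with 3 libraries against 3 the smallest possible two-sided p is 0.1 (exact permutation test, p = 0.1, adjusted over 6 ratios 0.12).

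APOA1, the main protein of HDL and the acceptor of cellular cholesterol, lies at chr11:116835751-116837950 on the minus strand. From 30881, 30601 and 27693 counts in the controls, APOA1 dropped to 9532, 8961 and 8475 under knockdown. Every knockdown library held less than the lowest control library by a wide margin. The means of 1689 ± 45.6 and 446 ± 25.3 CPM correspond to a log2 fold change of -1.92 ± 0.051 (edgeR, adjusted p = 1.02e-30), or 3.79-fold lower.

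APOA2 accompanies APOA1 on HDL and maps to chr1:161222292-161223631 on the minus strand. The controls contained 36863, 38017 and 34469 APOA2 counts against 20384, 20947 and 20637 under knockdown. The groups were apart, but the step was smaller than for APOA1. CPM means were 2072 ± 32.4 and 1025 ± 18.8, a log2 fold change of -1.02 ± 0.047 (edgeR, adjusted p = 3.34e-22). The number of APOA2 counts per 100 APOA1 counts was 123 ± 2.88 in sh-ctrl and 230.4 ± 15.1 in sh-KIF11, without overlap (exact permutation test, p = 0.1, adjusted 0.12).

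APOM carries sphingosine-1-phosphate on HDL and lies at chr6:31652416-31658210 on the plus strand. APOM was counted 1536, 1665 and 1491 times in control libraries, compared with 554, 496 and 464 times in knockdown libraries. Again no library crossed between groups. The means were 88.9 ± 3.11 and 25.03 ± 2.24 CPM, with a log2 fold change of -1.83 ± 0.069 (edgeR, adjusted p = 2.33e-25). APOM shares 290 bases with BAG6 on the other strand, and BAG6 changed by -0.30 ± 0.050 (edgeR, adjusted p = 1.68e-06), or by -0.07 and not called with library totals alone or FPKM. The kit keeps strand, but the strand setting used in counting is not given in the sources used here, and genes annotated on the opposite strand also overlap APOA1, APOA4, APOB and MTTP, so the counts of these genes carry some uncertainty. On their own strand, APOC1 and APOE share 722 and 19 bases with another annotated transcript, AC011481.3, which counting by strand does not separate.

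APOC3, which restrains lipoprotein lipase and the hepatic uptake of remnants, sits next to APOA1 at chr11:116829706-116833072, on the plus strand. APOC3 counts were 1138, 1305 and 1199 in control and 376, 345 and 355 in knockdown libraries. This was the largest fold change of the 10, from 69.1 ± 4.59 to 17.8 ± 1.050 CPM, with a log2 fold change of -1.96 ± 0.076 (edgeR, adjusted p = 7.28e-25), 3.88-fold lower. Its standard error overlapped that of APOA1. For each 100 APOA1 counts, the APOC3 counts were 4.09 ± 0.355 in sh-ctrl and 3.99 ± 0.175 in sh-KIF11, and the library values overlapped. The log2 ratio differed by -0.03 ± 0.082 (SE; exact permutation test, p = 0.8, adjusted 0.8), and leaving out sh-ctrl replicate 3 turned this to 0.01. Per 100 APOB counts, those of APOC3 were 0.761 ± 0.0881 (sh-ctrl) and 0.249 ± 0.0237 (sh-KIF11), without overlap (exact permutation test, p = 0.1, adjusted 0.12).

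APOA4, an apolipoprotein made mainly by the human intestine, belongs to the same chromosome 11 cluster, at chr11:116820700-116823306 on the minus strand. It was at a low level, with 29, 52 and 37 counts for the controls and 34, 30 and 29 under knockdown. The groups overlapped, with sh-ctrl replicate 1 among the knockdown values. The means were 2.23 ± 0.629 and 1.54 ± 0.136 CPM, and the log2 fold change of -0.54 ± 0.262 did not pass (edgeR, adjusted p = 0.0660). Without sh-ctrl replicate 1 it was -0.72 and passed (edgeR, adjusted p = 0.0237). Over 16 alternatives its adjusted p in edgeR, DESeq2 or limma lay between 0.0237 and 0.399. APOA4 counts per 100 APOA1 counts were 0.132 ± 0.0380 in sh-ctrl and 0.345 ± 0.0111 in sh-KIF11, without overlap (exact permutation test, p = 0.1, adjusted 0.12).

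APOE, the ligand by which remnants are cleared by the liver, lies at chr19:44905754-44909393 on the plus strand. Control libraries contained 22520, 22892 and 20026 APOE counts, and knockdown libraries 15466, 15318 and 14583. The groups were separate. CPM fell from 1239 ± 45.7 to 750.1 ± 17.96, a log2 fold change of -0.72 ± 0.048 (edgeR, adjusted p = 3.89e-17).

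APOC1, an inhibitor of cholesteryl ester transfer protein, follows APOE at chr19:44914247-44919349 on the same strand. APOC1 counts reached 4044, 4171 and 4083 in the controls but 2371, 2364 and 2132 under knockdown. The control libraries were all within a narrow range and above every knockdown library. The means were 233 ± 7.81 and 113 ± 5.07 CPM, with a log2 fold change of -1.04 ± 0.051 (edgeR, adjusted p = 2.57e-21). APOC1 counts per 100 APOE counts were 18.9 ± 1.33 in sh-ctrl and 15.1 ± 0.443 in sh-KIF11, without overlap (exact permutation test, p = 0.1, adjusted 0.12). A pseudogene copy, APOC1P1, lies in the same cluster and is not in the count table, so how reads shared with it were counted is uncertain.

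APOH, or beta-2-glycoprotein I, is a phospholipid-binding plasma protein. Its gene spans chr17:66212033-66256525 on the minus strand. APOH counts were 28582, 30352 and 33286 in control and 10577, 10293 and 9768 in knockdown libraries. Control libraries spread more than for the other abundant genes, yet all lay far above the knockdown libraries. The means were 1752 ± 195 and 507 ± 17.9 CPM, with a log2 fold change of -1.79 ± 0.057 (edgeR, adjusted p = 7.25e-28).

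**Figure D2:**
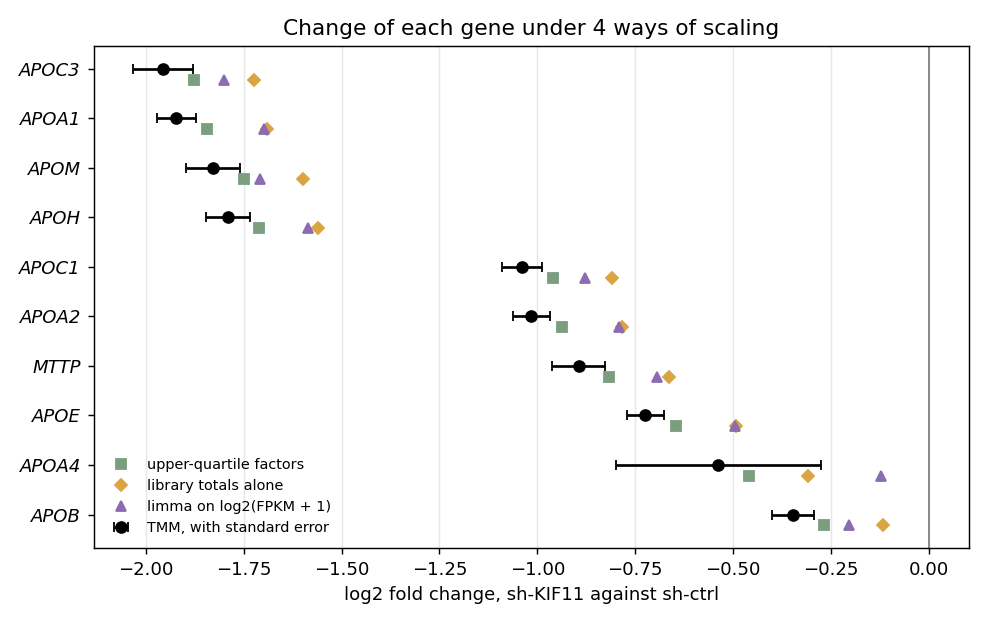
Log2 fold change of each gene in sh-KIF11 against sh-ctrl, with black points and standard errors for TMM scaling, green squares for upper-quartile factors, yellow diamonds for library totals alone, and purple triangles for limma on log2(FPKM + 1). All points lie below 0, and for APOB they run from -0.35 with TMM to -0.12 with library totals alone.

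All 10 genes kept a negative log2 fold change in each of the 16 alternative fits. The median of all tested genes moved with the scaling, from 0.00 with TMM to 0.24 with library totals alone and to 0.12 in limma on log2(FPKM + 1), and the share of calls that were lower was 50.2%, 26.4% and 31.5% respectively, and 41.5% with upper-quartile factors. With library totals alone, each of the 10 genes shifted upward by about as much as this median. The 4 genes with the largest decreases, APOC3, APOA1, APOM and APOH, ranged from -2.01 to -1.56 over all alternatives, and APOB from -0.41 to -0.12. APOB was the only one of the 9 called genes to lose its call, with limma on log2(FPKM + 1) without a filter on low values (-0.20, adjusted p = 0.0597).

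Per transcript length, the order of the genes changed. In sh-ctrl, mean FPKM fell in the order APOA2 (4684 ± 97.2), APOH (1179 ± 113), APOA1 (926 ± 29.7), APOE (633 ± 19.5), APOB (485 ± 41.2), APOC1 (179 ± 7.14), APOC3 (134 ± 6.22), APOM (46.2 ± 1.25), MTTP (17.2 ± 1.60) and APOA4 (0.841 ± 0.285), and no neighbours in this order overlapped. In sh-KIF11 the order was APOA2 (2705 ± 66.0), APOE (449 ± 8.86), APOB (420.4 ± 21.8), APOH (391 ± 13.2), APOA1 (285 ± 15.9), APOC1 (97.2 ± 3.76), APOC3 (37.7 ± 3.22), APOM (13.5 ± 1.85), MTTP (10.2 ± 0.668) and APOA4 (0.678 ± 0.0200). Here the ranges of APOB and APOH overlapped, though APOB was above APOH in each of the 3 libraries. APOE and APOB thus stood above APOH and APOA1 after the knockdown and below them in the control. Among all genes of the FPKM table, APOA2 had rank 2 in sh-ctrl and rank 3 in sh-KIF11, and APOA1 had ranks 41 and 125.

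**Figure D3:**
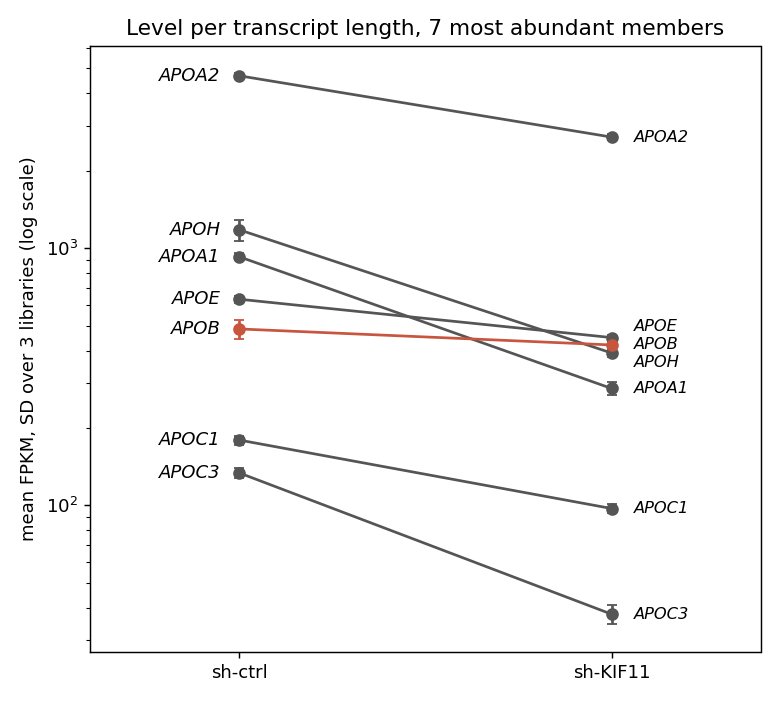
Mean FPKM on a log axis of the 7 most abundant of the 10 genes in sh-ctrl and sh-KIF11, with bars for the SD over 3 libraries and APOB in red. The lines of APOH and APOA1 cross those of APOE and APOB, which had 449 and 420.4 FPKM in sh-KIF11 against 391 for APOH and 285 for APOA1.

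Of all counts, the 10 genes together took 1.51 ± 0.0566% in control and 1.094 ± 0.0436% in knockdown libraries (exact permutation test, p = 0.1, the smallest possible). APOB alone took 0.874%, 0.883% and 0.769% of the sh-ctrl libraries and 0.790%, 0.812% and 0.728% of the sh-KIF11 libraries. These shares overlapped (exact permutation test, p = 0.3). The other 9 genes took 0.667 ± 0.00853% and 0.317 ± 0.00600%, without overlap (exact permutation test, p = 0.1). As a share of summed FPKM, which weighs transcripts by number, the 10 genes went from 2.50 ± 0.0335% to 1.4999 ± 0.00276% (exact permutation test, p = 0.1), and APOA2 from 1.41 ± 0.0386% to 0.920 ± 0.0193% (exact permutation test, p = 0.1).

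**Figure D4:**
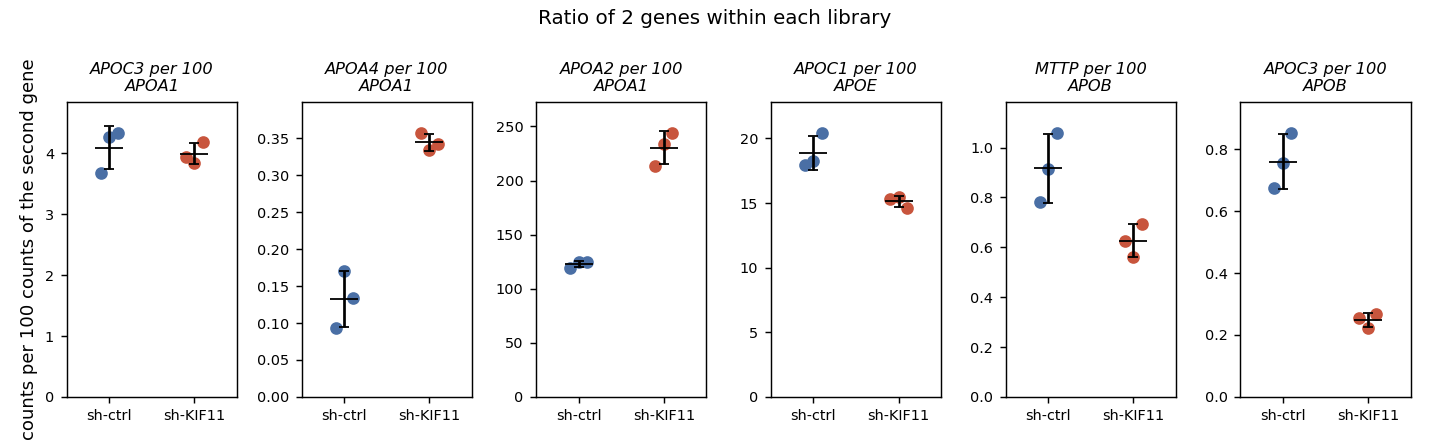
Counts of one gene per 100 counts of another within each library, for 6 pairs, with sh-ctrl in blue, sh-KIF11 in red and bars for the mean ± SD of 3 libraries, each axis starting at 0. APOC3 per 100 APOA1 is 4.09 and 3.99 with overlapping points, whereas the points of the other 5 pairs do not overlap.

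Genes that flank the 10 give the local background. Of the 42 nearest tested genes outside the apolipoprotein clusters, up to 3 on each side and up to 2883 kb away, 17 were lower. A further 10 were higher and 15 not called, and of all tested genes 34.7% were lower. The median log2 fold change of the 42 was 0.00, and 1 (BCAM, -1.26) was at least 2-fold lower. APOA5, APOC2 and APOC4 were counted as part of the clusters and are not among the 42. Of these, APOA5 (-1.71) and APOC2 (-1.01) were at least 2-fold lower, and APOC4 (-0.45) was not called. Beside the APOA1, APOC3 and APOA4 cluster on chromosome 11, ZPR1 changed by -0.13 ± 0.059 (edgeR, adjusted p = 0.0449), BUD13 by -0.15 ± 0.073 (edgeR, adjusted p = 0.0633) and SIK3 by 0.01 ± 0.080 (edgeR, adjusted p = 0.958). These values were small against those of APOA1 and APOC3. Library totals alone and FPKM, which raise the median of all genes, gave positive values for all 3, and with library totals alone SIK3 was called higher (0.24, edgeR, adjusted p = 0.00788). ZPR1 no longer passed without sh-KIF11 replicate 1 (-0.11) or 2 (-0.12) or sh-ctrl replicate 2 (-0.13) or 3 (-0.10), and BUD13 passed without sh-ctrl replicate 1 (-0.18). Beside APOE and APOC1, TOMM40 changed by -0.44 ± 0.050 (edgeR, adjusted p = 3.72e-10), NECTIN2 by -0.39 ± 0.050 (edgeR, adjusted p = 4.42e-09) and CLPTM1 by -0.26 ± 0.053 (edgeR, adjusted p = 3.02e-05), the last not called with library totals alone (-0.03) or FPKM (-0.05). Farther out on the same side as CLPTM1, RELB was higher by 0.54 ± 0.109 (edgeR, adjusted p = 3.13e-05), and CLASRP was at 0.07 ± 0.070 and not called (edgeR, adjusted p = 0.400).

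Promoter sequences were available for 7 of the 10 genes, from RefSeq on GRCh38.p14, and not for APOA1, APOB and APOC3. The 250 bases before each start site were searched on both strands for short motifs recognised by HNF4 and related nuclear receptors (AAAGTCCA, AAAGGTCA, AAGGGTCA), which are known regulators of apolipoprotein genes. None of these hits overlapped another. The promoters of APOM and the downstream start site of MTTP are shown because they held a match and the gene passed the test, with matched letters in capitals, 5′ to 3′ on the strand of the gene. They lie at chr6:31655644-31655893 and chr4:99574574-99574823, both on the plus strand. Both windows fall inside the GENCODE gene spans given above, so these RefSeq start sites are downstream of the GENCODE gene starts.
APOM: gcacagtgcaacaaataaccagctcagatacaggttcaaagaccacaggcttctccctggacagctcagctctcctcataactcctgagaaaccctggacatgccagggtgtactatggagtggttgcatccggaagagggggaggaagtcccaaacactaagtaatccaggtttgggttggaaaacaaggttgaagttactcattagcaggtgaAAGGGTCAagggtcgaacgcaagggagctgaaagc
MTTP: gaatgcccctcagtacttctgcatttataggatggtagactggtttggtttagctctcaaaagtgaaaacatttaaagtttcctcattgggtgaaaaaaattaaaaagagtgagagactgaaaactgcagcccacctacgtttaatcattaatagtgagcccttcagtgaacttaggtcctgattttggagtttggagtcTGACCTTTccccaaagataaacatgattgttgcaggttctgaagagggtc

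APOM held AAGGGTCA from -35 to -28 (0.698% of 35116 promoters), and MTTP held AAAGGTCA on the other strand from -50 to -43 (1.045%). APOA4, which did not pass the test, held AAAGTCCA from -134 to -127 (0.980%). No match was found for APOA2, APOC1, APOE and APOH, or before the upstream start site of MTTP. A match says only that these letters occur in the window, and the counts do not tell which APOM or MTTP start site was used.

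The regulators known to act on these promoters were measured in the same libraries. Of 25 such genes, 18 were lower, 4 higher and 3 not called, with a median log2 fold change of -0.51. Lower calls made up 72%, against 34.7% of all tested genes and 41.4% of those with a mean of at least 10 CPM. HNF4A, a nuclear receptor that activates many apolipoprotein genes, went from 321 ± 13.8 to 232 ± 4.05 CPM (log2 fold change -0.47 ± 0.049, edgeR, adjusted p = 3.43e-11). The largest decreases were of NR1H4, the bile acid receptor, from 74.5 ± 8.39 to 27.2 ± 1.30 CPM (-1.45 ± 0.074), of SREBF1, which drives fatty acid synthesis genes, from 110.1 ± 8.21 to 45.2 ± 5.61 CPM (-1.28 ± 0.067), and of PPARGC1A, a coactivator of nuclear receptors, from 25.6 ± 0.939 to 11.1 ± 0.298 CPM (-1.21 ± 0.089). FOXO1, a transcription factor held back by insulin, was higher, at 31.3 ± 2.45 and 40.5 ± 0.133 CPM (0.37 ± 0.074, edgeR, adjusted p = 2.88e-05), as was NR1D1, a clock repressor, at 9.74 ± 1.56 and 14.1 ± 0.268 CPM (0.53 ± 0.111, edgeR, adjusted p = 6.31e-05). PPARGC1B was called higher at a low level (1.46 ± 0.815 and 2.35 ± 0.152 CPM, 0.67 ± 0.281, edgeR, adjusted p = 0.0327), a call lost in DESeq2, in FPKM and without sh-ctrl replicate 1 (0.53) or 3 (0.39) or sh-KIF11 replicate 1 (0.64) or 3 (0.64).

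Of 13 further apolipoproteins, 10 could be tested, of which 7 were lower, none was higher and 3 were not called, with a median of -0.79. Lower calls were 70% here, against 34.7% of all tested genes and 41.4% of those with a mean of at least 10 CPM. APOL1, a trypanolytic factor carried on HDL, went from 15.6 ± 1.96 to 4.53 ± 0.441 CPM (-1.79 ± 0.126), and APOA5, an activator of triglyceride lipolysis, from 73.5 ± 5.66 to 22.4 ± 2.46 CPM (-1.71 ± 0.076). CLU, also called apolipoprotein J, fell from 672 ± 33.7 to 233 ± 15.8 CPM (-1.53 ± 0.052). APOC2, the cofactor of lipoprotein lipase, fell from 299.6 ± 11.4 to 149 ± 2.47 CPM (-1.01 ± 0.049). All 4 passed edgeR's test and each of its alternatives.

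Genes of lipoprotein assembly and secretion were divided. Of 23, 22 were tested, and 11 were lower, 5 higher and 6 not called, with a median of -0.26. Thus 50% of the list were lower, against 34.7% of all tested genes and 41.4% of those with a mean of at least 10 CPM. Of all tested genes 34.4% were higher. P4HB, the protein disulfide isomerase that forms the small subunit of the MTTP complex, went from 2649 ± 107 to 1196 ± 35.1 CPM (-1.15 ± 0.049, edgeR, adjusted p = 1.56e-23). CIDEB, a lipid droplet protein that promotes lipid loading of very low density lipoprotein, fell from 28.8 ± 1.52 to 10.04 ± 1.499 CPM (-1.52 ± 0.096), and PRAP1, a lipid-binding protein that aids the transfer by MTTP, from 74.9 ± 1.26 to 33.5 ± 1.01 CPM (-1.16 ± 0.064). MIA2, a cargo factor of endoplasmic reticulum export, was higher at 138 ± 10.9 and 187 ± 7.09 CPM (0.44 ± 0.054), as were PLTP, the phospholipid transfer protein, at 63.4 ± 4.88 and 86.0 ± 4.28 CPM (0.44 ± 0.060), and ABCA1, the exporter that delivers cholesterol to APOA1, at 82.7 ± 1.96 and 99.5 ± 2.13 CPM (0.27 ± 0.053, edgeR, adjusted p = 2.88e-05).

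Of 11 plasma enzymes and their modulators 7 were tested, and 6 were lower and 1 higher, with a median of -0.67. The lower share was 85.7% here, 34.7% over all tested genes and 41.4% over those with a mean of at least 10 CPM. LPL and GPIHBP1 had no counts in any library. ANGPTL8, an inhibitor of lipoprotein lipase, fell from 90.1 ± 3.96 to 21.1 ± 1.75 CPM (-2.09 ± 0.070, edgeR, adjusted p = 4.17e-27) and LIPG, endothelial lipase, from 6.55 ± 0.543 to 1.77 ± 0.156 CPM (-1.88 ± 0.189). ANGPTL4 was called lower at a low level (1.45 ± 0.860 and 0.591 ± 0.294 CPM, -1.28 ± 0.391, edgeR, adjusted p = 0.00380), and its libraries overlapped. Without sh-ctrl replicate 2 it was at -0.67 and no longer passed. It also lost its call in limma on log2(FPKM + 1) without a filter (-0.32). LCAT, which esterifies cholesterol on HDL, was near the threshold (11.6 ± 0.548 and 9.67 ± 0.974 CPM, -0.27 ± 0.112, edgeR, adjusted p = 0.0325). It lost its call in 8 of 16 alternatives. These were DESeq2, library totals alone (-0.04), upper-quartile factors (-0.19) and a minimum of 10 counts in every library (-0.24). The rest were limma on log2(FPKM + 1) without a filter (-0.18), and the fits without sh-KIF11 replicate 2 (-0.27) or 3 (-0.20) or sh-ctrl replicate 1 (-0.23). LMF1, a lipase maturation factor, was called higher (0.54 ± 0.161, edgeR, adjusted p = 0.00289), a call lost in limma on FPKM with the filter.

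Among 11 receptor and uptake genes, 6 were lower, 3 higher and 2 not called, with a median of -0.30. That is 54.5% lower, against 34.7% of all tested genes and 41.4% of those with a mean of at least 10 CPM. Higher calls were 34.4% of all tested genes. SCARB1, the HDL receptor, fell from 364 ± 15.9 to 210.2 ± 11.6 CPM (-0.79 ± 0.051), and LRPAP1, a chaperone of lipoprotein receptors, from 187 ± 4.92 to 109 ± 2.11 CPM (-0.79 ± 0.050). LRP8, an APOE receptor, fell from 44.9 ± 2.75 to 29.3 ± 3.19 CPM (-0.61 ± 0.078, edgeR, adjusted p = 4.73e-09). CD36, a scavenger and fatty acid receptor, rose from 1.85 ± 0.401 to 7.93 ± 0.860 CPM (2.103 ± 0.184, edgeR, adjusted p = 2.59e-13), and VLDLR, the very low density lipoprotein receptor, from 6.90 ± 0.274 to 9.59 ± 0.925 CPM (0.47 ± 0.126, edgeR, adjusted p = 0.00101). LRP1 was called higher at 0.15 ± 0.053 (edgeR, adjusted p = 0.0109), and lost this call without sh-KIF11 replicate 1 (0.12) or sh-ctrl replicate 3 (0.08).

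**Figure D5:**
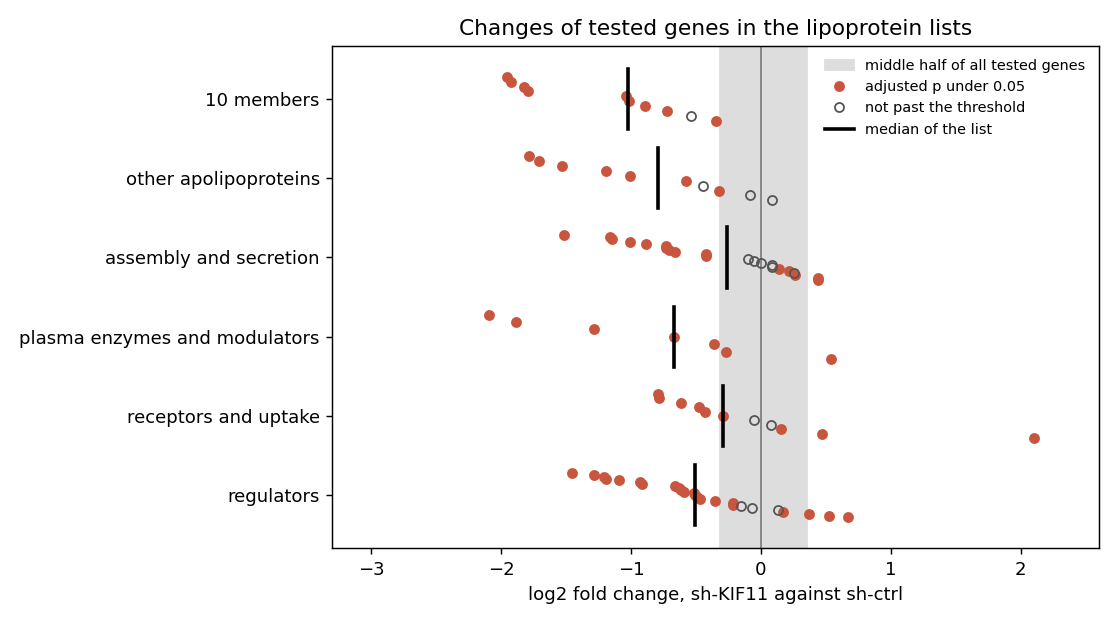
Log2 fold change in sh-KIF11 against sh-ctrl of each tested gene in 6 lists, filled where the adjusted p was under 0.05, with a black bar at each list's median and a grey band from the lower quartile (-0.31) to the upper quartile (0.36) of all tested genes. The medians run from -1.03 for the 10 genes described here to -0.26 for assembly and secretion.

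The genes whose pattern over the 6 libraries was most like that of APOB, by Pearson correlation of log2 CPM, were NUDT16L1 (0.999), FANCG (0.998) and RANGAP1 (0.996), and 11 genes had a correlation over 0.99. For APOA1 these were C2orf72, PHPT1 and MLX, each over 0.999, and 814 genes were over 0.99. These correlations rest on 6 libraries in 2 groups, share the library scaling and are given as a description only.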

How the data were processed

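The data were 6 mRNA sequencing libraries of HepG2 cells, 3 sh-ctrl and 3 sh-KIF11, grouped by their labels. The deposited files hold unnormalized counts per gene, and FPKM values that the authors computed for the same 20030 genes, scaled by length and depth. The submitters' processing notes name bcl2fastq 1.8.4, Trimmomatic, HISAT2 2.1.0, Cufflinks 2.2.1, HTSeq 0.9.1, DESeq and the build GRCh38. How multi-mapped and overlapping reads were counted is not given in the sources used here.

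Counts were fitted in R 4.3.3 with edgeR 4.0.16 (quasi-likelihood test, TMM factors, group as the only term). The filter filterByExpr kept 12369 genes and left out 7661. P-values were two-sided and adjusted by the Benjamini-Hochberg method over all tested genes, with a threshold of 0.05, and the biological coefficient of variation was 4.87%. Depth was 18167773 to 19583282 counts per library. Libraries of the same group differed with a chi-square per degree of freedom of 2.67 to 8.11, so none was a copy of another, and 84.0 to 102 between groups. Log2 CPM used a prior count of 2. Shares and ratios within libraries were tested by exact two-sided permutation (SciPy 1.17.1).

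Alternatives were DESeq2 1.42.0, limma 3.58.1 on log2(FPKM + 1) and log2(FPKM + 0.1), other scalings and filters, a replicate block and each library left out in turn. Where 1 library was left out, the remaining 2 of that group were fitted with the other group's 3. On simulated counts with 196 tested genes changed by 1 on the log2 scale, edgeR called 96.9% of these and 12 others among 12262 genes. The simulation gave every gene a common dispersion and changed few genes, whereas 8548 genes were called in the data. It therefore checks that the code recovers known changes, but not the error rate or the scaling at that extent of change.

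The 10 genes, the gene lists, the motifs and the tests were chosen with earlier results of these data known. Named in the text are the 10 genes, the called genes of each lipoprotein list with the 3 largest decreases and increases among those with a mean of at least 1 CPM, genes whose role is needed to read the others, flanking genes, and the 3 genes most like APOB and APOA1. A few genes under this rule were left out of the lists and the text. Gene positions came from GENCODE 29 and promoter sequences from RefSeq (GRCh38.p14).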

Additional observations from a re-analysis of the deposited data

How the results depend on the processing

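Between 8 and 10 of the 10 genes were lower, and none was higher, in each of the 16 alternative fits. At an adjusted p under 0.01 the count was 9, and with at least a 2-fold change it was 6. The number of all tested genes called lower, 4294 with TMM, was 2373 with library totals alone, 2597 with limma on log2(FPKM + 0.1), 2596 with limma on log2(FPKM + 1) and 2489 with the latter without a filter. These settings placed the median of all genes above 0, at 0.24, 0.17, 0.12 and 0.05 on the log2 scale. The same settings, in that order, turned ZPR1 to 0.098, 0.073, 0.069 and 0.069, and BUD13 to 0.079, 0.043, 0.038 and 0.038, where TMM gave negative values. SIK3, at 0.01 with TMM, was 0.24 and called higher with library totals alone (adjusted p = 0.00788), -0.0063 without a low-count filter and ranged from -0.070 to 0.057 with a library left out (-0.048 without sh-KIF11 replicate 1, -0.070 without sh-ctrl replicate 3). The difference in the log2 ratio of APOC3 to APOA1 ranged from -0.11 to 0.010 with a library left out, and was 0.010 without sh-ctrl replicate 3. The directions of the other 5 ratios held in all 7 alternatives run for each.

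The labels number the libraries alike in both groups, but same-numbered libraries did not deviate together (correlations of 0.03, -0.02 and -0.00253), so the number marks no known pair. With the replicate block, 8607 genes were called against 8548 without it, 9 of the 10 genes were lower, and APOB changed by -0.35. APOA4 had 29 to 52 counts per library, the fewest of the 10 genes, and whether depth set its call was not tested.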

Other observations

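Other secreted proteins of the hepatocyte, grouped by name, can be set beside the apolipoproteins. All 3 fibrinogen chains, which form the clotting protein, were lower in sh-KIF11 by edgeR's quasi-likelihood test: FGA fell from 812 ± 47.3 to 292 ± 29.6 CPM (log2 fold change -1.48 ± 0.056), FGB from 123 ± 8.35 to 63.3 ± 8.57 CPM (-0.96 ± 0.065) and FGG from 615 ± 45.4 to 219 ± 17.7 CPM (-1.49 ± 0.056; SD and SE, n = 3 libraries per group). Of 7 serum carrier proteins 5 were lower, 1 was higher and 1 was not called. ALB, albumin, went from 8365 ± 899 to 2971 ± 179 CPM (-1.49 ± 0.058), TF, the iron carrier transferrin, from 4583 ± 224 to 941 ± 25.7 CPM (-2.28 ± 0.051), and RBP4, the retinol carrier, from 706 ± 26.0 to 242 ± 5.71 CPM (-1.55 ± 0.049). TTR, the thyroxine carrier transthyretin, had 26.2 ± 4.79 and 24.0 ± 3.001 CPM and did not pass (-0.13 ± 0.096, edgeR, adjusted p = 0.229). It was called lower without sh-KIF11 replicate 3 (-0.23). Its value was positive with library totals alone (0.10), in limma on FPKM (0.07) and without sh-ctrl replicate 2 (0.04). AFM, a vitamin E carrier of the albumin family, had 13, 9 and 9 counts in control and 36, 11 and 26 in knockdown libraries, which overlapped. It was called higher (1.03 ± 0.396, edgeR, adjusted p = 0.0196), but not in DESeq2 (adjusted p = 0.0560), in limma on FPKM, or without sh-KIF11 replicate 1 (0.64) or 3 (0.97) or sh-ctrl replicate 2 (0.93) or 3 (0.97). Whether these groups differ from the apolipoproteins was not tested.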
